A study of Mus musculus with 2 samples.

Results

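Neuronal splicing switch regulators are RNA-binding proteins that set which exons a transcript keeps as a neural progenitor becomes a neuron. The set described here holds 10 genes, chosen by name: Ptbp1 and Ptbp2 of the polypyrimidine tract binding (PTB) family, Srrm4, Rbfox1, Rbfox2, Rbfox3, Nova1, Nova2, Mbnl1 and Mbnl2. They are 10 of the 36493 gene names on the array and carry 18 of its 55674 probes. All 18 probes were well above background on both arrays and none was saturated.

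The cells were neural stem and progenitor cells (NSPCs) made from mouse embryonic stem cells by way of embryoid bodies and grown as tertiary neurospheres, floating clusters of dividing neural cells, at passage 2. The control group was cells labelled as a control for overexpression, and the other group was cells overexpressing miR-153, a brain-enriched microRNA. Each group had 1 array, hybridised with Cy3-labelled RNA collected on day 18 after the embryoid bodies. The labels name neither the embryonic stem cell line nor the construct that supplied miR-153, and neurospheres are mixed cultures of progenitors and the cells they form. With 1 array a group there is no replicate, no test and no p-value, and a difference between arrays may be one between cultures.

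As background, Ptbp1 is high in progenitors and most non-neural cells, where it blocks the inclusion of neuronal exons. Among its targets is an exon of Ptbp2, and without that exon the Ptbp2 transcript is degraded. In neurons Ptbp1 is replaced by Ptbp2, and Srrm4, the Rbfox proteins and the Nova proteins promote neuronal exons. Muscleblind proteins (Mbnl1 and Mbnl2) favour exon choices of mature tissues and are known for their loss of function in myotonic dystrophy. The arrays measured transcript level at the probe and not the inclusion of any exon.

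Both arms of the microRNA are shown because the labels do not say which arm was meant by miR-153. The sequences are those of RefSeq on GRCm38.p6, at chr12:117250821-117250843 and chr12:117250860-117250881 on the plus strand, with bases 2 to 8 (the seed) in capitals.
mmu-miR-153-5p: gUCAUUUUugugacguugcagcu
mmu-miR-153-3p: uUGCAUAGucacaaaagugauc
The letters TATGCA, which pair with bases 2 to 7 of the 3p arm, were in none of the 18 probe sequences and in 1.44% of all probes. That search covers the probes only, and nothing about targeting can be read from it. The array carried 0 probes named for Mir153.

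The probes of the genes on which the results turn are shown as the first 30 of their 60 bases, 5′ to 3′ as printed in the scanner files, in which positions are on the mouse build mm9. They lie at chr10:79326905-79326963 and chr10:79325963-79326022 (Ptbp1, plus strand), chr3:119422284-119422343 (Ptbp2, minus strand), chr5:116889300-116889359 (Srrm4, minus strand), and chr16:7409998-7410057 and chr16:7411544-7411603 (Rbfox1, plus strand). Whether a probe lies in coding or untranslated sequence was not determined here, since no mm9 annotation was used.
Ptbp1 probe 1: gtggaagagtgtaaatatttatgattttat
Ptbp1 probe 2: aaccatgacctgggcgagaaccaccacctg
Ptbp2: aagacaaagaaagtgtactgcgaaaacttg
Srrm4: cctcatttagatggaacttaattgaggaac
Rbfox1 probe 1: aggcctgagtgttgcatcacatgcagtagg
Rbfox1 probe 2: tgtgaacctgccaacctgctgtaacaactc
Probe 1 of a gene is always its brightest. No pair of probes of different genes in the set shared a run longer than 8 bases.

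Values are given first as processed signal, the scanner software's background-subtracted intensity, with that software's own error estimate for the spot. Levels are log2 of the signal over the array's 75th percentile, which was 435 in control cells and 549 with miR-153, so equal signals are not equal levels. Differences are log2 levels with miR-153 minus those in control cells, and a gene counted as higher or lower when it was at least 2-fold apart. The error estimates put 0.20 to 0.22 on each of the 18 differences, and they cover the spot and not the culture. Per the file headers that estimate uses a fixed proportional error set in the software, so for bright spots it is close to a constant share of the signal and is no measured spread. Different probes of a gene had a pooled SD of 0.46 over 3445 genes. Repeat spots of a probe had a median SD of 0.073 over 257 probes, but each of the 18 probes had a single spot.

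The progenitor-type repressor Ptbp1 was lower on the miR-153 array and the neuronal activators Srrm4 and Rbfox1 were higher. Mbnl1 was also lower, by little more than 2-fold. Of the 10 genes, 2 were at least 2-fold higher, where 9.26% of 20456 genes were, 2 were at least 2-fold lower, where 11.1% were, and 6 lay between. The 4 genes past 2-fold in either direction compare with 20.3% of all genes, and shares of 20% each way among 10 genes rest on 2 genes each. With a 1.5-fold rule 4 were higher, Rbfox3 and Nova1 being the further ones, where 18.6% of all genes were, and 3 were lower, with Mbnl2, where 24.7% were. By probes, 3 of 18 were higher and 3 lower, against 9.03% and 11.5% of 27446 probes. The median difference was 0.29 over the 10 genes and -0.11 over all genes, and the median size of the difference was 0.72 against 0.50.

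**Figure D1:**
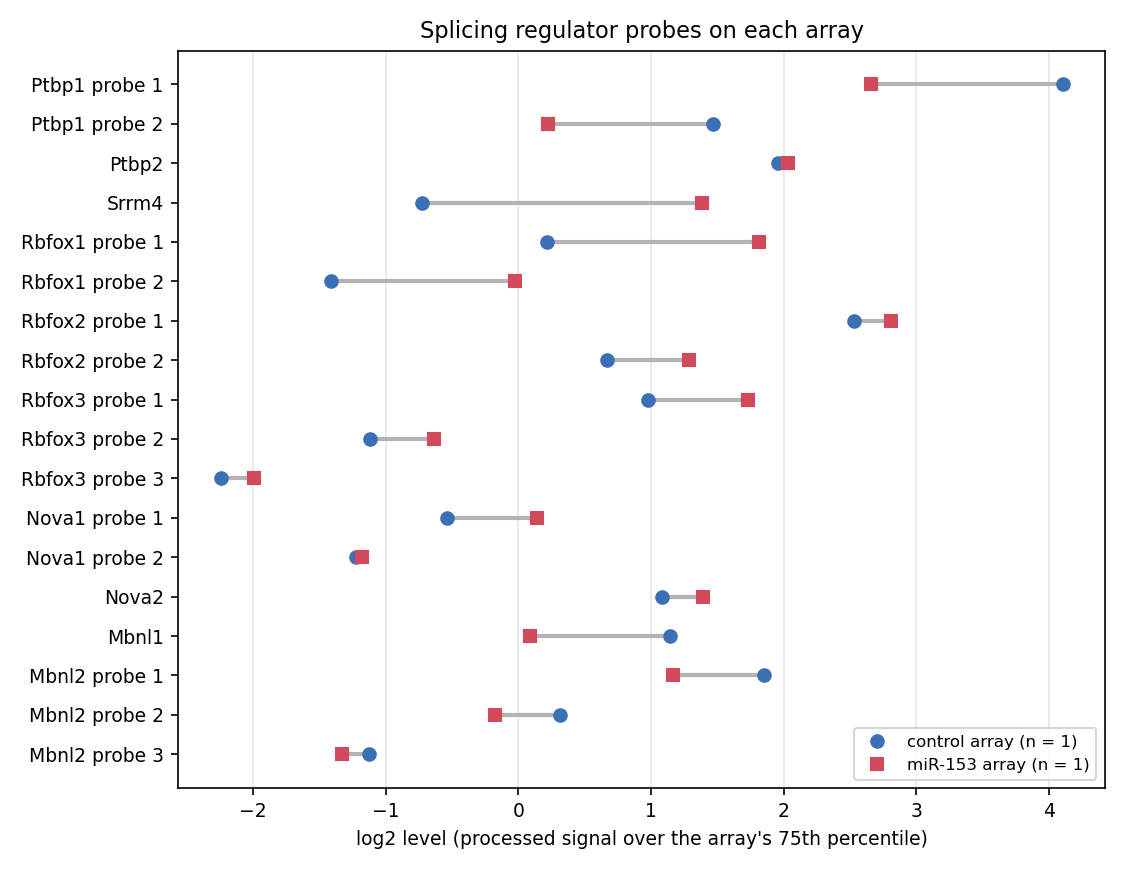
Log2 level of each of the 18 probes (x axis, processed signal over the array's 75th percentile) on the control array (circles) and the miR-153 array (squares), 1 array each, with a line joining the values of a probe. Both Ptbp1 probes lie further left on the miR-153 array, Srrm4 and both Rbfox1 probes lie further right, and the symbols of Ptbp2 nearly coincide at 1.95 and 2.03.

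Ptbp1 encodes the PTB protein that holds neuronal exons back in progenitors. Its probe 1 gave a signal of 7481 ± 748 (scanner error) in control cells and 3474 ± 347 with miR-153. Probe 2, 942 bases away by start position, gave 1202 ± 120 and 641 ± 64.3. Both probes were therefore dimmer on the miR-153 array. The differences were -1.44 and -1.24, which are 2.72-fold and 2.37-fold lower. The SD between its probes was 0.14, against the pooled 0.46. Of all genes, 5.33% had a lower difference than Ptbp1.

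Ptbp2, the neuronal PTB protein whose transcript Ptbp1 destabilises, was measured by 1 probe. Its signal was 1686 ± 169 in control cells and 2244 ± 224 with miR-153. Relative to the 75th percentile that is a difference of 0.08, smaller than its error of 0.20. Of all genes, 40.0% had a higher difference. With scaling on spike-in RNA the difference of Ptbp2 was 0.32, still short of 2-fold. The error of 0.20 covers the spot alone and sets no limit for a real difference. Both values of Ptbp2 are smaller than the pooled SD of 0.46 between probes of a gene. The difference of Ptbp2 exceeded that of Ptbp1 by 1.52 on the log2 scale, a contrast that scaling each array by a single constant leaves as it is. A transcript that lacks the Ptbp1-regulated exon may still be seen by a single probe, so the level here does not separate productive from unproductive Ptbp2.

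Srrm4 encodes a serine/arginine-rich protein, also called nSR100, that promotes the inclusion of very short neuronal exons. The signal of its 1 probe was 263 ± 26.8 in control cells and 1435 ± 144 with miR-153. This was the largest difference among the 10 genes, 2.11 or 4.33-fold higher, and 1.14% of all genes had a higher one. Set against Ptbp1, the difference of Srrm4 was greater by 3.56, and against Rest by 2.74. No second probe was there to check Srrm4.

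Srrm3, a relative of Srrm4 with a similar action on short exons in neurons, was on the list of related regulators. Its brighter probe went from 225 to 1501 in signal, a difference of 2.40. Its other probe was dim, at 30.9 and 35.8, and gave -0.12, so the Srrm3 probes disagree.

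**Figure D2:**
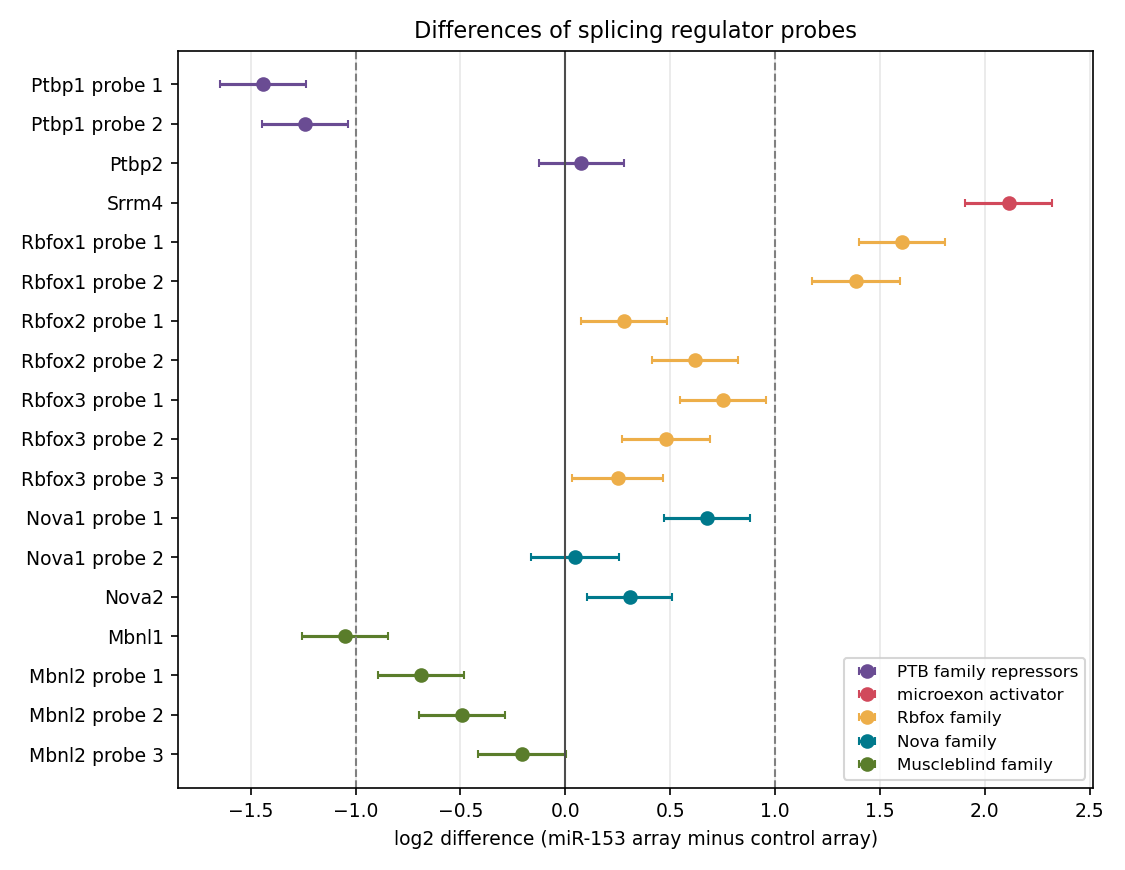
Log2 difference of each probe (x axis, miR-153 minus control), with bars for the scanner software's error estimate, coloured by gene family; dashed lines mark 2-fold. The probes at least 2-fold higher are those of Srrm4 and Rbfox1, and the probes at least 2-fold lower are those of Ptbp1 and Mbnl1.

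The Rbfox proteins bind the RNA letters UGCAUG and act on exons of neurons and muscle. Rbfox1 gave a signal of 505 ± 50.7 in control cells and 1936 ± 194 with miR-153 with probe 1, and 164 ± 17.1 and 539.9 ± 54.2 with probe 2. Both probes were brighter on the miR-153 array. The differences were 1.60 (3.04-fold) and 1.39 (2.61-fold), from probes 1546 bases apart. Of all probes, 2.91% had a higher difference than Rbfox1 probe 1.

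Rbfox2, the member of the family with the broadest expression across tissues, was higher by less. Probe 1 went from 2510.4 ± 251 to 3847 ± 385 and probe 2 from 692 ± 69.4 to 1342 ± 134. The differences of 0.28 and 0.62 are both short of 2-fold. Probe 1 (chr15:76914284-76914343, minus strand) is of unusual composition, with 36 T and 0 C among its 60 bases; 0.0718% of all probes have no C. Rbfox1 exceeded Ptbp1 by 3.05 and Rbfox2 by 1.32 in difference on their brightest probes.

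Rbfox3 encodes NeuN, the nuclear protein used to stain mature neurons. Its 3 probes went from 859 ± 86.0 to 1827 ± 183, from 201 ± 20.8 to 353 ± 35.7 and from 91.8 ± 10.1 to 138 ± 14.3. Each was brighter on the miR-153 array. The differences were 0.75, 0.48 and 0.25, none of them 2-fold, and the smallest came from the dimmest probe. That probe is placed by the scanner files on 34 bases only (chr11:118351074-118351107, minus strand), next to the site of probe 1 (chr11:118351107-118351166).

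Nova1 and Nova2 encode KH-domain proteins of neurons, first known as antigens in a paraneoplastic movement disorder, that regulate exons of synaptic genes. Nova1 probe 1 (chr12:47799762-47799821, minus strand) went from 300.5 ± 30.4 to 606 ± 60.8, and probe 2 (chr12:47797592-47797651) from 186 ± 19.1 to 243 ± 24.6. Their differences were 0.68 and 0.05, a gap of 0.63. The SD between its probes, 0.45, was close to the pooled 0.46. Nova2, with 1 probe (chr7:19544090-19544149, plus strand), went from 924 ± 92.5 to 1441 ± 144, a difference of 0.31. Neither gene reached 2-fold.

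Both muscleblind genes lay on the side opposite to the Rbfox and Nova genes. Mbnl1, measured by 1 probe (chr3:60433601-60433660, plus strand), had a signal of 959 ± 96.1 in control cells and 584 ± 58.7 with miR-153. The difference was -1.05, or 2.07-fold lower, and it fell short of 2-fold with normexp background correction (-0.99) and with scaling on spike-in RNA (-0.81). Mbnl2 went from 1574 ± 158 to 1233.5 ± 123 (chr14:120828398-120828457, plus strand), from 542 ± 54.4 to 487 ± 48.9 and from 199.8 ± 20.6 to 219 ± 22.3. The third of these signals was the brighter on the miR-153 array, but relative to each array's 75th percentile all 3 differences were below 0, at -0.69, -0.49 and -0.21. Mbnl3, the remaining gene of that family, was dim, at 56.1 and 39.8, with a difference of -0.83.

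In all 6 genes with several probes, the probes had the same sign. The widest gap between probes was that of Nova1, followed by Rbfox3 (0.50) and Mbnl2 (0.48). Scaling on spike-in RNA added 0.24 to every difference, moved the median of all genes to 0.14 and changed the share of higher genes among those past 2-fold from 45.6% to 64.9%. The third Mbnl2 probe, at -0.21, changes sign when 0.24 is added, so the agreement of the Mbnl2 probes depends on the scaling. Taken by brightest probe or by the mean of probes, all 10 genes kept their sign under that scaling and under the other 8 alternatives. The deposited series values and the filters on dim probes left each gene's value as it was, so they could not change a sign. The mean of probes likewise left genes with 1 probe unchanged. The range was -1.44 to -1.20 for Ptbp1, 1.86 to 2.35 for Srrm4, up to 1.85 for Rbfox1 and 0.07 to 0.32 for Ptbp2.

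**Figure D3:**
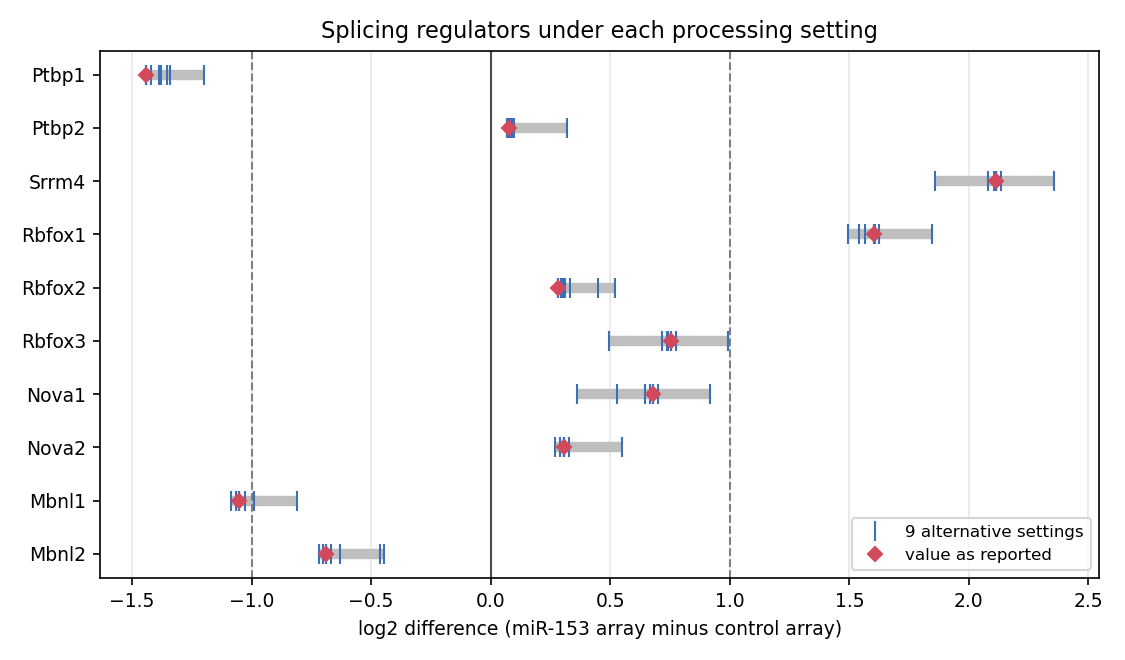
Log2 difference of each gene (x axis, miR-153 minus control) as reported (diamonds) and under 9 alternative settings (ticks), with a bar over the range and dashed lines at 2-fold. Ptbp1, Srrm4 and Rbfox1 stay beyond 2-fold in each setting, while Mbnl1 spans the line from -1.09 to -0.81. The deposited series values and the filters on dim probes leave a gene's value unchanged.

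The sequence before the start site is shown for the genes past 2-fold that had more than one probe or the largest difference. RefSeq's promoter table on GRCm38.p6 held 11 start sites for 9 of the 10 genes. Printed are the 250 bases before the start, 5′ to 3′ on the gene's strand, at chr10:79854182-79854431 (Ptbp1, plus), chr5:116591818-116592067 (Srrm4, minus) and chr16:7069585-7069834 (Rbfox1, plus). Capitals mark matches on either strand to 3 forms of the E-box, which basic helix-loop-helix factors bind (CAGCTG, next the form CAGATG, and last CACGTG), and to the CCAAT box. No motif in capitals overlaps another.
Ptbp1 upstream: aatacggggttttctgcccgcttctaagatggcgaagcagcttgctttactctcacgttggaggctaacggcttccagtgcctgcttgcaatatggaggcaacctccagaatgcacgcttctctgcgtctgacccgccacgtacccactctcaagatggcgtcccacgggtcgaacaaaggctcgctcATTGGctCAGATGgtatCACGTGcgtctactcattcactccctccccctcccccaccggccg
Srrm4 upstream: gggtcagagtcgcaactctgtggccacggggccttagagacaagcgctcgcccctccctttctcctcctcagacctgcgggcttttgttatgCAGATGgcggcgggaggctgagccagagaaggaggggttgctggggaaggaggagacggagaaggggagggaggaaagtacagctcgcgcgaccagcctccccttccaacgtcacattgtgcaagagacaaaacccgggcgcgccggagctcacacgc
Rbfox1 upstream: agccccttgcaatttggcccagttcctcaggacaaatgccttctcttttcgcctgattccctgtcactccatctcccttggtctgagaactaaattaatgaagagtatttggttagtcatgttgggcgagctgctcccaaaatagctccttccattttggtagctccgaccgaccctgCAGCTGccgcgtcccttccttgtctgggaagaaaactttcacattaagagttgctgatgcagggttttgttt
In Ptbp1 the reverse of CCAAT starts 62 bases before the start site, followed by CAGATG at 55 and CACGTG at 45. Srrm4 has CAGATG at 158 and Rbfox1 has CAGCTG at 72, while the other Rbfox1 start in the table has none of these letters. Of all 32851 promoters in that table, 13.0% held CAGCTG, 14.4% CAGATG, 6.02% CACGTG and 33.8% CCAAT over the same 250 bases and both strands. The parts TTCAGCACC and GGACAGCG of the site of REST, a repressor of neuronal genes, were in 0 of the 11, against 0.301% and 0.992% of all. These matches describe the letters and do not show that a factor is bound.

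**Figure D4:**
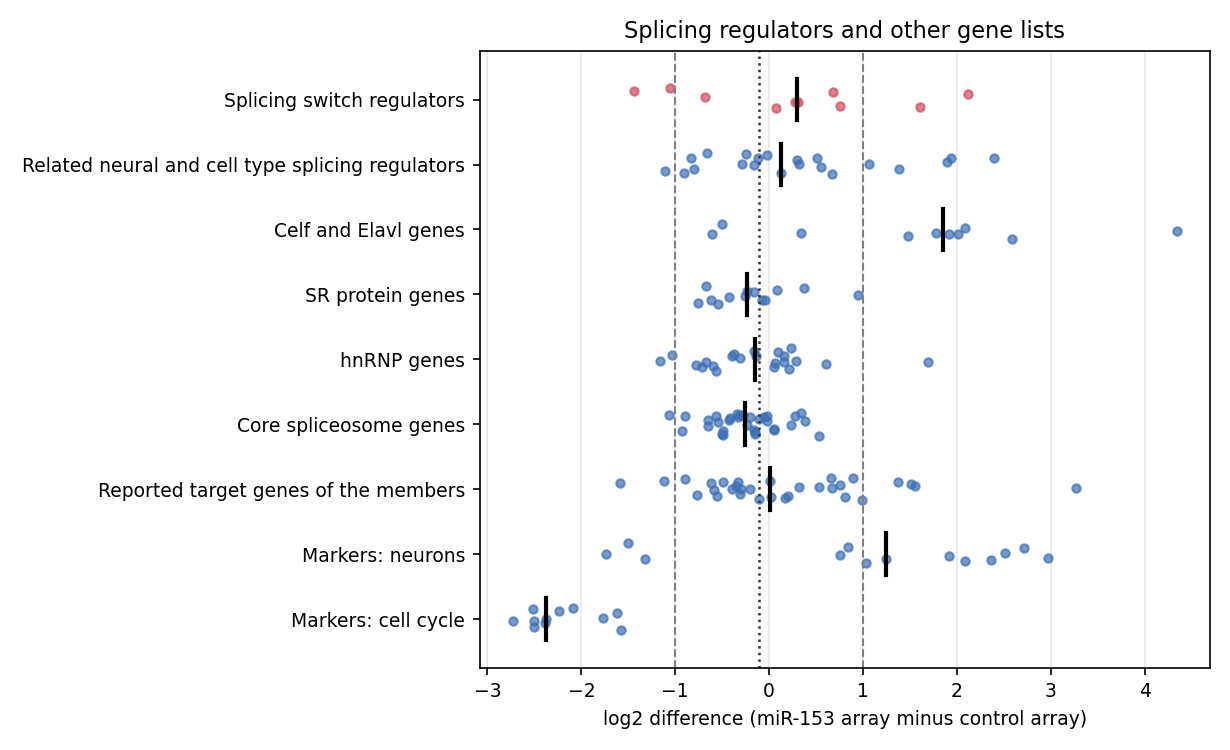
Log2 difference of each gene (x axis, miR-153 minus control), one point a gene, for the splicing switch regulators (red) and for other lists (blue), with black bars at list medians, dashed lines at 2-fold and a dotted line at the median of all genes, -0.11. Most genes of the SR protein, hnRNP and core spliceosome lists lie between the dashed lines, and the Celf and Elavl genes have a median of 1.85.

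The lists of general splicing machinery are read against 20.3% of all genes past 2-fold. Of 13 genes for SR proteins, which help define exons, 0 were 2-fold higher and 0 lower, with a median of -0.24 and a range of -0.75 to 0.95. Of 32 core spliceosome genes, 0 were higher and 1 was lower, Snrpf at -1.06, with a median of -0.25. Of 22 genes for hnRNP and related proteins, 1 was higher, Hnrnph3 at 1.69, and 2 were lower, Hnrnpf at -1.17 and Hnrnpa3 at -1.04. Their median was -0.15. All 3 medians are close to that of all genes, -0.11.

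Among 22 other regulators of cell type splicing, 21 were measured on both arrays and had a median of 0.12, with 5 at least 2-fold higher and 1 lower. This count and that of the Celf and Elavl genes are read beside 9.26% of all genes higher and 11.1% lower. Besides Srrm3, the higher genes were Rbm4b (1.93), Khdrbs2 (1.90), Rbm24 (1.38) and Rbm4 (1.07). Khdrbs2 encodes a STAR-family protein of neurons, and Rbm24 is best known from muscle. The lower gene was Hnrnpl (-1.11). Ptbp3, the third PTB gene, had probes at -0.67 and -1.41. Raver1 and Raver2, which encode cofactors of PTB, were at -0.29 and 0.67. Of 10 Celf and Elavl genes, 7 were higher and 0 lower. Elavl3 and Elavl4 of this list are also counted among the neuron markers below, so those counts are not separate. Celf3 was at 4.34, Celf5 at 2.59 and Elavl4, a gene of neurons, at 2.09, while the widely expressed Elavl1 and Celf1 were at -0.61 and -0.50.

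Genes whose transcripts are reported to be spliced by these regulators were examined by level. Of 32, 31 were measured on both arrays, with 4 higher, 2 lower and a median of 0.01. Of all genes, 9.26% were higher and 11.1% lower, or 20.3% in either direction. Among the higher genes were Mapt (1.55), which encodes tau, Gabbr1 (1.51) and Nrxn3 (1.38). Camk2b, a kinase gene of neurons, was among the lower ones (-1.59). Dlg4, the gene of the synaptic scaffold PSD-95, and Gabbr1, a GABA-B receptor gene, both have transcripts that PTB proteins render unstable. Dlg4 went from 443 to 1039 in signal, a difference of 0.89, and the 3 probes of Gabbr1 gave 1.51, 1.11 and 1.14. Rest, whose transcript Srrm4 diverts to a truncated form, went from 1111 to 911, and its probes gave -0.62 and -0.88. Whether the levels of Dlg4, Gabbr1 and Rest depended on splicing by these regulators was not tested.

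Markers of several kinds of cell also differed between the arrays, and in whole cultures fewer cells of a type and less RNA per cell cannot be told apart. Counts on the marker lists are read beside 9.26% of all genes higher and 11.1% lower. All 13 neuron markers were measured on both arrays, of which 8 were higher and 3 lower, with a median of 1.25. Their summed level, in multiples of the 75th percentile, was 155 in control cells and 233 with miR-153. Dcx, a gene of young neurons, was at 2.97, Nsg2 at 2.72 and Tubb3, the neuronal beta-tubulin gene, at 2.52, while Nefm, Nefl and Gap43 were lower, Gap43 by 2.83-fold. Of 12 cell cycle markers, 11 were lower, with a median of -2.37 and Bub1 (-2.73), Ccnb2 (-2.52) and Ccnb1 (-2.51) furthest. Aurkb passed the background criterion in control cells alone, and the summed level was 223 in control cells and 53.0 with miR-153. All 10 progenitor markers were measured, 3 higher (Hes5 at 2.44, Prom1 at 1.74 and Sox1 at 1.15) and 0 lower by the 2-fold rule. Nes (-0.95), Hes1 (-0.82), Vim (-0.72) and Pax6 (-0.69) were below 0 but short of 2-fold. Sox2 (0.29), Fabp7 (0.19) and Msi1 (0.15) were slightly above 0. The summed level was 718 on each array, carried mainly by Fabp7 and Vim, which moved in opposite directions. Oligodendrocyte markers had 5 of 6 higher (among them Cnp at 2.88 and Mag at 2.56) and a summed level of 9.99 and 65.4, and astrocyte markers 1 of 6 higher, S100b at 1.44, with sums of 31.7 and 46.9. The part of these cell types in the differences of the splicing regulators was not tested.

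Muscle also uses Rbfox1, Mbnl1 and Rbm24. Of 8 muscle markers, Myod1, Myog, Myh3, Des and Tnnt2 failed the background criterion on both arrays. Actc1 passed on both (0.84), Acta1 with miR-153 alone and Myl1 in control cells alone, and the summed level of the list was 0.290 and 0.324. Of 6 pluripotency markers, 4 were measured on both arrays, with 2 lower (Esrrb at -2.48 and Dppa5a at -1.44) and sums of 5.36 and 2.73. Pou5f1 passed the criterion with miR-153 alone and Zfp42 on neither array. The Pou5f1 signals were nearly equal, at 24.0 in control cells and 24.7 with miR-153, and its levels were -4.18 and -4.47. Of 5 mesenchyme markers, Pdgfrb (2.08) and Col1a1 (1.10) were higher, with sums of 3.17 and 4.07. Ptprc, Aif1 and Cd68 of microglia and blood, and Cdh5 and Tek of endothelium, failed the criterion on both arrays. The remaining genes of these lists passed, and the sums were 24.7 and 40.0 for microglia and blood, carried mainly by Itgam, and 16.7 and 10.5 for endothelium, carried mainly by Kdr.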

How the data were processed

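Cy3-labelled RNA of 1 control and 1 miR-153 sample was hybridised to 1-colour Agilent arrays that shared 1 slide, per the file headers. The authors deposited scanner files in which the processed signal is a background-subtracted, detrended intensity on a linear scale, per the file headers, and the submitters' processing notes name Agilent Feature Extraction 10.7.3.1 as the software. The deposited series table holds the same intensity divided by 1 constant for each array, as comparison with the scanner files showed, and held 0 columns of other samples.

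The arrays held 59305 spots other than controls, of which the software placed 52.5% (control cells) and 55.6% (miR-153) well above background. After 229 spots with an outlier flag were left out, log2 of the processed signal minus each array's 75th percentile was taken and repeat spots were averaged. Of the resulting 55674 probes, 26296 were named through RefSeq accessions (GRCm38.p6, names only) and the others by the file. All 18 probes of the 10 genes were kept, and in gene counts the brightest probe stood for a gene. A gene enters counts when well above background on both arrays (20456 genes). The only rule for a call is 2-fold; having 1 array a group limits the precision. Known shifts planted in the measured miR-153 signals of 200 probes were recovered. This checks the arithmetic alone and says nothing on how reliable the differences are.

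The genes named are all 10 regulators, up to 3 genes of each other list with the largest differences past 2-fold, and Rest, Dlg4 and Gabbr1; some genes that this rule names are not reported here. Other genes (among them Ptbp3, Mbnl3, Raver1, Raver2, Rbm4, Rbm24, Hnrnpl, Nrxn3, Elavl1, Celf1, Gap43, Nefm, Nefl, Pou5f1, Itgam and Kdr, and those named as not above background) were named after their values were seen. The regulators and all lists were chosen with earlier results of these data known. Alternatives used limma 3.58.1 in R 4.3.3 (normexp with offset 50, quantile), lowess (statsmodels 0.14.6, fraction 0.3), 350 spike-in spots, detected probes, the series table, other filters on dim probes, the mean of probes and a 1.5-fold rule.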

Additional observations from a re-analysis of the deposited data

How the results depend on the processing

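All 10 genes kept their sign under each of 9 alternatives, and 9 of the genes kept their side of 2-fold, while Mbnl1 did not. The deposited series values and the filters on dim probes could not change a gene's value, so they are no check on its sign or size. The number of genes at least 2-fold higher stayed at 2 under 9 alternatives and was 4 with a 1.5-fold rule (3 lower), where 18.6% of all genes were higher and 24.7% lower. The share of all genes that were higher ran from 5.89% (normexp) to 13.9% (spike-in scaling) over the alternatives at 2-fold, and the share lower from 7.48% (normexp) to 12.0% (no filter on dim probes), so the background for these counts moves with the setting. The number at least 2-fold lower was 1 with normexp background correction and 1 with spike-in scaling, since Mbnl1 stood at -0.99 and -0.81 there, and 2 under the other 7 alternatives at 2-fold. The median over the 10 genes ranged from 0.29 to 0.53. The probe counts were 3 higher throughout and 2 or 3 lower. Of genes on the 6 related lists, 23 were at least 2-fold apart, and 20 to 24 over the alternatives. These lists held 21, 10, 13, 22, 32 and 31 genes measured on both arrays, and 20.3% of all genes were at least 2-fold apart. Leaving out replicates was not possible with 1 array in each group, and no spread between cultures was measured. No paired analysis was possible because each group has 1 sample.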
